A study of Rattus norvegicus with 8 samples.

Results

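The genes described here are 10 markers of retinal ganglion cells (RGCs) that belong to the cell surface, the synucleins or synaptic transmission: Sncg, Thy1, Nrn1, Slc17a6, Nell2, Rbpms, Panx2, Chrna6, Chrnb3 and Anxa6. They were taken by gene name from all spots that are not controls, which gave 10 of 26334 gene names on the array, with 20 of 42877 spots and 11 probes. RNA was measured in whole retinas of female Lister Hooded rats aged 8 weeks at surgery. In 4 rats the right optic nerve was crushed behind the eye, 3 mm away from the disc and for 10 s (ONC), and in 4 sham-operated rats (CTR) the forceps were placed but not closed. Retinas were taken 2 weeks later, and each of 4 Agilent arrays carried 2 retinas, 1 in each dye. The question is how transcripts of RGCs differ between a retina with a crushed nerve and a sham-operated one. By the labels, CTR and ONC retinas with the same number share an array, CTR in Cy5 and ONC in Cy3. Under that layout, dye and condition cannot be told apart. The methods of the study place retinas of the same group on an array, and the 2 sources give the same dye for CTR2, CTR4, ONC1 and ONC3 only. Labels were used throughout, and a channel is named here by its label. The retinal origin was checked with markers that include Gnat1, Sag, Nrl, Grm6, Glul and Rlbp1, which were well above background in 8 of 8 channels.

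RGCs are the only neurons that send axons from the retina to the brain, and they release glutamate there. Their markers come from several kinds of protein: Thy1 and neuritin sit on the cell surface by a lipid anchor, gamma-synuclein is a small cytosolic protein of axons, and the vesicular glutamate transporter Slc17a6 fills synaptic vesicles. Nicotinic receptors that contain the alpha6 and beta3 subunits lie on RGC axons and their endings, where they respond to acetylcholine.

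Of the 10 genes, 8 were bright enough on every array, with a foreground at least 2 times the local background in all 8 channels. Nrn1 and Chrnb3 were too dim. The Nrn1 probe reached only 1.75 times the background in CTR4 and was not marked as well above background in ONC4. The Chrnb3 probe stayed under 2 times the background in CTR1, CTR3 and CTR4, with a lowest ratio of 1.58 in CTR1, and was not marked as well above background in CTR1 or ONC4. The foreground over background of the remaining 9 probes was lowest for Rbpms, at 2.80 in CTR1, and highest for a Nell2 probe, at 383 in ONC2. The median foreground over all spots was highest in CTR2, at 626, and lowest in ONC4, at 218. No spot was saturated. In the markers described below CTR2 was also high and ONC4 low, but ONC1 (337) and ONC3 (332), where most markers were high, were dimmer than CTR1 (468), CTR3 (447) and CTR4 (468), where they were low. ONC2, where most markers were also high, was at 495, brighter than CTR1, CTR3 and CTR4. Over all 8 channels the order of brightness was thus not that of the markers. Within each dye it was closer to it: CTR2 was the brightest Cy5 channel and ONC4 the dimmest Cy3 channel. The part of brightness was not tested.

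**Figure D1:**
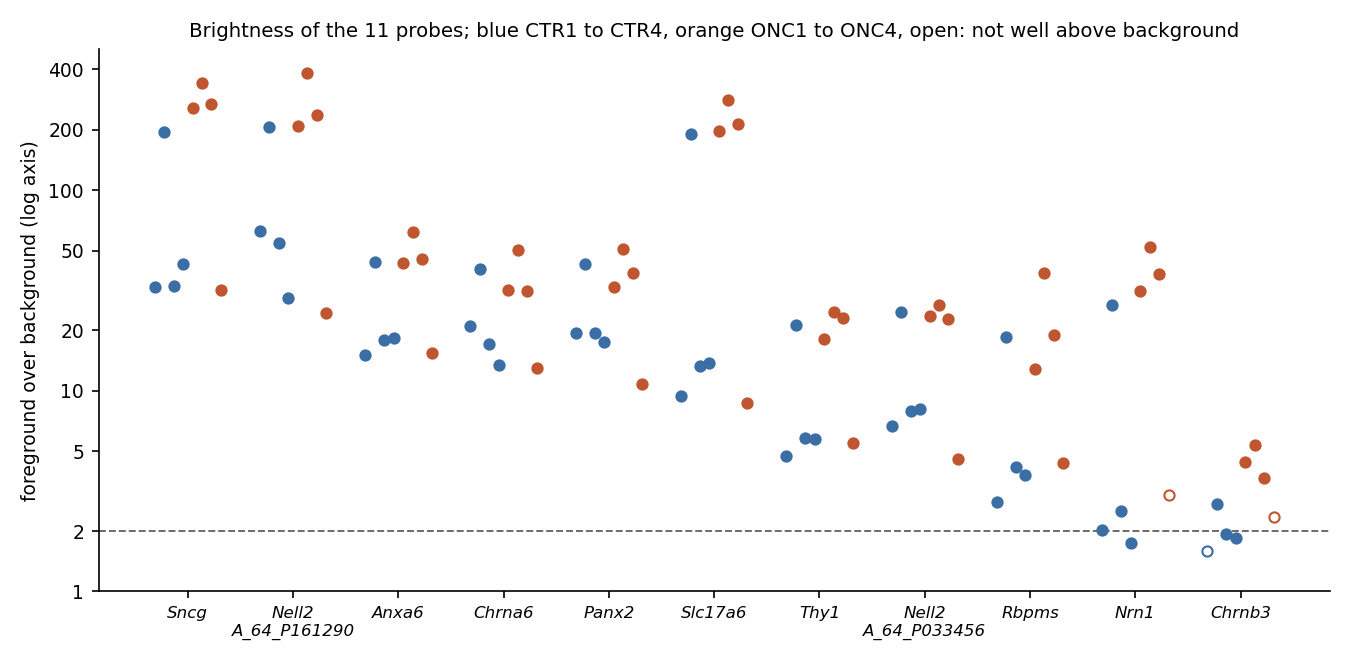
Foreground over local background (log axis) of the 11 probes in the 4 CTR and 4 ONC channels, as the median over spots. The dashed line is the minimum of 2, which Nrn1 misses in 1 channel and Chrnb3 in 3.

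The probes that measured these genes are 60 bases long, and their positions on the rn4 assembly are those in the array annotation. Thy1 and the Nell2 probe A_64_P033456 are shown whole, and of the others shown the first 30 bases are given. They are shown because each level below is the brightness of a spot of this sequence. Lower case is used throughout, since no base is singled out. The Thy1 probe spans chr8:47031186-47031646 on the plus strand, which is 461 bases of genome for 60 of probe. The Nell2 probes lie at chr7:133888271-133888330 and chr7:133758407-133758466 on the minus strand, 129804 bases apart. The Sncg probe lies at chr16:10026224-10026283 on the minus strand, the Slc17a6 probe at chr1:101465828-101465887 on the plus strand and the Rbpms probe at chr16:62111223-62111282 on the plus strand. The Chrna6 probe at chr16:69018847-69018901, on the plus strand, and the Chrnb3 probe at chr16:69029099-69029158, on the minus strand, are 10197 bases apart, and in the RefSeq gene table the genes are neighbours.
Thy1 A_44_P475159: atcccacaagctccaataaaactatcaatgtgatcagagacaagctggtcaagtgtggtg
Nell2 A_64_P033456: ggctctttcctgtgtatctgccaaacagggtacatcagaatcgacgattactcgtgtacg
Nell2 A_64_P161290: acagtgcactccgaaccctgaaacaagcta
Sncg A_44_P384017: ccaagagtggaggtgactagaaggcttcca
Slc17a6 A_42_P511118: gccctgctactgcgaatataaaacgtgaag
Rbpms A_44_P127337: cttcgatcctgaaatcccgcaaacactacg
Chrna6 A_64_P165996: tgttttttcctccactacttaccacaagaa
Chrnb3 A_43_P15439: cttgctgtaaggttccatcaaaataactta
No probe of the 10 genes shares a run of 20 bases with a probe of another gene. Their GC content lies between 38.3% and 55.0%.

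Thy1 is a glycoprotein of the immunoglobulin superfamily, anchored by lipid in the neuronal membrane. Log2 levels of Thy1 placed CTR1 at -2.47, CTR2 at -0.72, CTR3 at -2.14, CTR4 at -2.09, ONC1 at -0.83, ONC2 at -1.11, ONC3 at -0.71 and ONC4 at -2.33. Thus CTR2 was high among the CTR channels, ONC4 was low among the ONC channels, and the groups overlapped. In bulk retina, fewer cells of a type and less RNA per cell cannot be told apart. The study reports RGC markers to be lower after ONC, and by the labels of the deposited channels most of the signed differences given here point the other way. Every sign given here rests on these labels, and whether each label names the right retina was not tested. Apart from the arrays, the study reports fewer traced RGCs after ONC, and lower Nell2, Nefm and Tubb3 by PCR in other retinas. Those measures run the way the study's labels say, but do not show which channel holds which retina. The log2 difference of Thy1, ONC minus CTR, was 0.61 (standard error, SE, 0.44, adjusted p = 0.513), smaller than the SD of either group. ONC was above CTR on 2 of 4 arrays.

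Nrn1, or neuritin, is a small lipid-anchored protein that promotes the growth of neurites. With dim spots kept and a background correction suited to them, its log2 levels placed CTR1 at -1.90, CTR2 at 1.52, CTR3 at -1.60, CTR4 at -1.59, ONC1 at 1.71, ONC2 at 1.94, ONC3 at 1.55 and ONC4 at -1.52. The pattern is that of Thy1, with CTR2 among the high channels and ONC4 among the low ones, and the groups overlapped. Its log2 difference of 1.81 (SE 0.93, adjusted p = 0.784) depends on the background, because the low channels lie near it. In the same family, Nrn1l was bright enough, differed by 0.08 on the log2 scale (SE 0.09, adjusted p = 0.694) and stayed within 2.46 to 2.79 over the 8 channels. That difference was 0.02 without CTR4, 0.12 without ONC4, and between 0.02 and 0.19 over 18 alternatives. Of the other adhesion molecules of the neuronal surface, 8 besides Thy1 were tested, and with Thy1 7 were higher and 2 lower in ONC, with a median log2 difference of 0.21, which was 0.11 with the processed signal and 0.36 with median scaling. Cntn2, a contactin of axons, had the largest value among them, 0.66 (SE 0.25, adjusted p = 0.208), with the ONC channel higher on 4 of 4 arrays. Cd24 had the smallest, -0.30 (SE 0.14, adjusted p = 0.304, and -0.39 to -0.19 with 1 channel left out), with the ONC channel lower on all 4 arrays.

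Nell2 is a secreted glycoprotein with EGF-like repeats that binds the axon guidance receptor Robo3. The mean of its 2 probes placed CTR1 at -0.35, CTR2 at 1.19, CTR3 at -0.14, CTR4 at -0.68, ONC1 at 1.25, ONC2 at 1.10, ONC3 at 1.29 and ONC4 at -1.16, as log2 levels. ONC4 was the lowest of the 8 channels, CTR2 lay among the high ONC channels, and the groups overlapped. The log2 difference was 0.62 (SE 0.59, adjusted p = 0.629). Taken separately, the probe A_64_P161290 gave 0.86 (adjusted p = 0.561) and A_64_P033456 gave 0.37 (adjusted p = 0.757). Over 8 channels, which share arrays, their levels had a Pearson r of 0.912 and a Spearman correlation of 0.786. The difference between them ran from 2.12 to 4.07 on the log2 scale, so the probes did not keep a fixed distance. Of the 5 genes of the NELL and Robo list, 4 were higher and 1 lower in ONC, with a median log2 difference of 0.25 that was 0.15 without CTR4, 0.16 without the filter on dim spots, 0.38 with the processed signal and 0.60 with median scaling. Nell1 was at 0.56 (SE 0.43, adjusted p = 0.539). Robo3, the receptor, was at -0.41 (SE 0.29, adjusted p = 0.503). Nell1 ran from 0.35 to 0.97 and Robo3 from -0.68 to -0.13 when 1 channel was left out.

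Panx2 is a pannexin, a subunit of large-pore membrane channels. Log2 levels of Panx2 placed CTR1 at -0.50, CTR2 at 0.48, CTR3 at -0.31, CTR4 at -0.64, ONC1 at 0.19, ONC2 at 0.20, ONC3 at 0.15 and ONC4 at -0.84. CTR2 was the highest channel and ONC4 the lowest, and the groups overlapped in part. The log2 difference was 0.16 (SE 0.30, adjusted p = 0.828), with the ONC channel higher on 2 of 4 arrays. Of the pannexins and connexins, which form channels and gap junctions, 9 of 15 were tested, with 4 higher and 5 lower. Their median log2 difference was 0.00 to 2 decimals, and its sign changed in 6 of 18 alternatives. The extremes were Gjb6 at 0.48 (SE 0.22, adjusted p = 0.291) and Panx1 at -0.16 (SE 0.14, adjusted p = 0.582), which ran from 0.29 to 0.61 and from -0.28 to -0.10 with 1 channel left out.

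Sncg encodes gamma-synuclein, an abundant cytosolic protein of RGC bodies and axons. For Sncg, log2 levels placed CTR1 at 0.43, CTR2 at 2.56, CTR3 at 0.46, CTR4 at 0.76, ONC1 at 3.099, ONC2 at 3.09, ONC3 at 3.12 and ONC4 at 0.59. ONC1, ONC2 and ONC3 lay close together, CTR2 stood near them, and ONC4 lay among the other CTR channels, so the groups overlapped. The log2 difference was 1.42 (95% interval -0.07 to 2.92, adjusted p = 0.294). In the same family, Sncb had a log2 difference of 0.41 (SE 0.12, adjusted p = 0.138), with groups that did not overlap and the ONC channel higher on 4 of 4 arrays.

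Anxa6 is an annexin, a protein that binds membrane phospholipids when calcium is present. Anxa6 levels on the log2 scale placed CTR1 at -0.54, CTR2 at 0.24, CTR3 at -0.57, CTR4 at -0.33, ONC1 at 0.50, ONC2 at 0.48, ONC3 at 0.44 and ONC4 at -0.43. CTR2 was again the high CTR channel and ONC4 the low ONC channel, and the groups overlapped. The log2 difference was 0.55 (95% interval -0.01 to 1.11, adjusted p = 0.281), the smallest adjusted p among the 8 genes. The annexins as a family did not share the sign of Anxa6, with 2 higher and 7 lower of 9 tested and a median log2 difference of -0.15, which was -0.27 without CTR2, -0.08 without CTR4, -0.06 without ONC2 and -0.08 with the processed signal. Anxa7 was at 0.23 (SE 0.15, adjusted p = 0.453). Anxa1, an anti-inflammatory mediator, was at -0.38 (SE 0.25, adjusted p = 0.461). When 1 channel was left out, Anxa7 ran from 0.16 to 0.37 and Anxa1 from -0.61 to -0.21.

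Rbpms is an RNA-binding protein that marks RGCs as a class. Log2 levels of Rbpms placed CTR1 at -3.65, CTR2 at -0.73, CTR3 at -2.85, CTR4 at -2.72, ONC1 at -1.57, ONC2 at -0.44, ONC3 at -0.54 and ONC4 at -2.78. The high channels were ONC2, ONC3 and CTR2, ONC1 lay between, and the groups overlapped. Between the labels, the log2 difference was 1.15 (SE 0.68, adjusted p = 0.405). In CTR1 its foreground was 2.8 times the background, the lowest such ratio in any channel among the 9 probes that passed, which limits the precision there. The paralog Rbpms2 was too dim to test.

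Slc17a6 encodes the vesicular glutamate transporter with which RGCs load synaptic vesicles. For Slc17a6, log2 levels placed CTR1 at -1.49, CTR2 at 2.55, CTR3 at -0.93, CTR4 at -0.81, ONC1 at 2.61, ONC2 at 2.58, ONC3 at 2.66 and ONC4 at -1.40. The channels fell into a high set of 4 and a low set of 4 that cross the labels, with a range of 4.15, and the groups overlapped. The gene is printed 10 times on each array, and the SD among the 9 spots that passed lay between 0.0857 and 0.248 within a channel, which is the noise of spots and not the spread between animals. Between the labels, the log2 difference was 1.79 (95% interval -0.72 to 4.29, adjusted p = 0.434). Of 5 vesicular transporters tested, 4 were higher and 1 lower, with a median log2 difference of 0.04 whose sign changed in 3 of 18 alternatives. Slc18a2, the monoamine transporter, was at 0.15 (SE 0.21, adjusted p = 0.759), and at 0.03 to 0.31 with 1 channel left out. Slc32a1, which loads GABA and glycine in amacrine and horizontal cells, was at -0.34 (SE 0.12, adjusted p = 0.182), with groups that did not overlap and the ONC channel lower on all 4 arrays.

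Chrna6 encodes the alpha6 subunit of nicotinic acetylcholine receptors. Chrna6 levels on the log2 scale placed CTR1 at -0.31, CTR2 at 0.23, CTR3 at -0.59, CTR4 at -0.95, ONC1 at -0.23, ONC2 at -0.27, ONC3 at -0.35 and ONC4 at -1.08. CTR2 was the highest channel, ONC4 and CTR4 were the lowest, CTR1 lay beside the higher ONC channels, and the groups overlapped. Between the labels, the log2 difference was -0.08 (SE 0.27, adjusted p = 0.915), the only negative one among the 8 genes, and its sign changed in 4 of 18 alternatives. Chrnb3 encodes the beta3 subunit, which assembles with alpha6. With dim spots kept, its log2 levels placed CTR1 at -2.03, CTR2 at -1.79, CTR3 at -1.57, CTR4 at -1.54, ONC1 at -1.56, ONC2 at -1.82, ONC3 at -1.43 and ONC4 at -1.90. Neither CTR2 nor the first 3 ONC channels stood out, the range over all channels was 0.60, and the groups overlapped. Between the labels, the log2 difference was 0.06 (SE 0.15, adjusted p = 1.0), a value from a probe too dim to use, whose sign changed when CTR1 or ONC3 was left out.

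Of 16 nicotinic receptor subunits, 7 were bright enough, 2 of them higher and 5 lower in ONC, and they had a median log2 difference of -0.01 whose sign changed in 9 of 18 alternatives. Chrna5 had the largest value, 0.26 (SE 0.16, adjusted p = 0.426). Chrna1, the muscle subunit, had the smallest outside Chrna6, -0.03 (SE 0.16, adjusted p = 0.938), and its sign changed in 5 of 18 alternatives. A difference between labels does not show whether a gene follows the markers over the channels, since their pattern crosses the labels. With the mean profile of the 8 markers, described below, the r of the 7 subunits ran from -0.65 for Chrna1 to 0.95 for Chrna3. The log2 difference of Chrna3 was 0.13 (SE 0.25). All 5 tested genes of proteins that modulate nicotinic receptors had positive values, and their median was 0.21, or 0.50 with median scaling. Lynx1, a lipid-anchored brake on these receptors, had the largest, 0.39 (SE 0.34, adjusted p = 0.601), and Lypd1 the smallest, 0.10 (SE 0.08, adjusted p = 0.545). Leaving out 1 channel, Chrna5 ran from 0.18 to 0.40, Lynx1 from 0.23 to 0.72 and Lypd1 from 0.07 to 0.16.

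**Figure D2:**
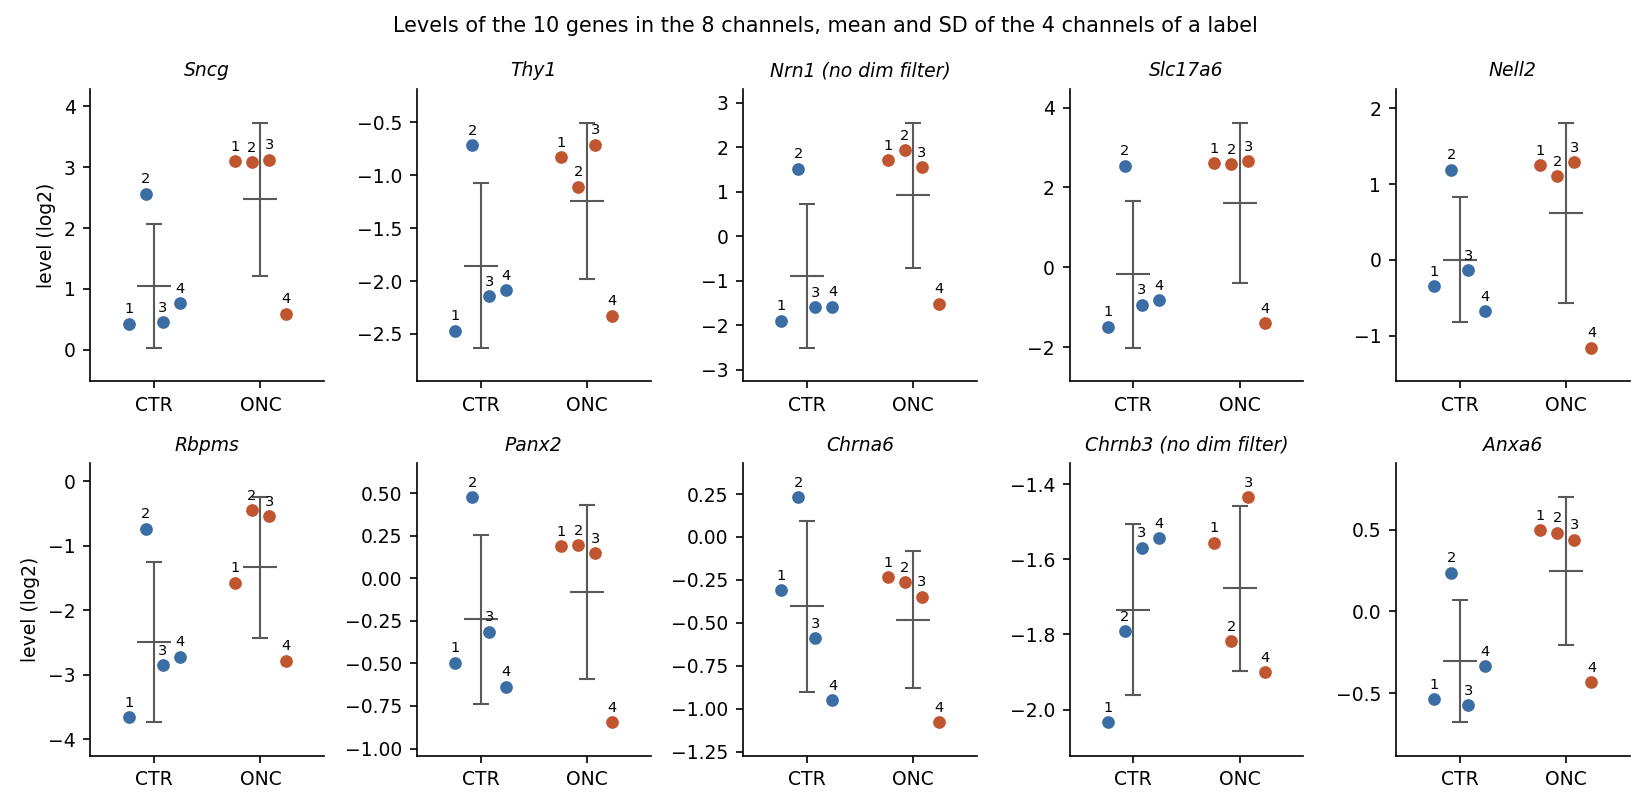
Log2 levels of the 10 genes in the CTR channels (blue) and ONC channels (orange), numbered by retina, with the mean and SD of each group (n = 4). Nrn1 and Chrnb3 are shown without the filter on dim spots. In Slc17a6, CTR2 lies at 2.55 beside 3 ONC channels, and ONC4 lies at -1.40 beside the other CTR channels.

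Across the 8 genes that passed, limma called 0 as different between ONC and CTR after adjustment over 16307 genes, where 81 genes or 0.497% of all were called. At an unadjusted p under 0.05, 0 of the 8 genes were found, against 3025 of all genes (18.6%). The methods' t-test on linear values found 0 of the 8 and 2682 of all 16307 at an unadjusted p under 0.05, and 0 and 0 after Benjamini-Hochberg adjustment. The methods use the unadjusted p with a fold threshold for each gene, which was not applied here. With the array as a block, limma called 1254 genes (7.69%) and 0 of the 8, whose adjusted p ran from 0.125 to 0.715 with the block. At an unadjusted p under 0.05 limma with the block gave 3 of the 8, which were Sncg, Rbpms and Anxa6, and 5097 of all 16307 genes. The share among the 8 was thus near that over all genes. Without the filter on dim spots, limma called 0 of the 10 genes and 0 of 25942 genes (0%), with 0 and 1957 at an unadjusted p under 0.05. Among probes, 113 of 18599 (0.608%) were called and 0 of the 9 that passed. Over all genes, 2069 (12.7%) had groups that did not overlap, and 0 of the 8 genes did. The median log2 difference of the 8 was 0.61, with 7 higher and 1 lower, against -0.01 over all genes tested, and it was 0.999 without CTR2 and 1.09 without ONC4. Over all 10 genes with dim spots kept, the median was 0.58, with 9 higher and 1 lower, against 0.02 over all genes.

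The 8 genes were then set against their means over the 8 channels. The median of the 8 genes placed CTR1 at -0.79, CTR2 at 0.81, CTR3 at -0.57, CTR4 at -0.67, ONC1 at 0.62, ONC2 at 0.65, ONC3 at 0.91 and ONC4 at -0.82, on the log2 scale. Within the arrays, the median difference of the ONC over the CTR channel was 1.62, -0.03, 1.43 and -0.19 for arrays 1 to 4. The markers therefore differed between the dyes of arrays 1 and 3 and little on arrays 2 and 4, although the labels give all arrays the same order. Slc17a6 gave 4.10, 0.03, 3.60 and -0.58 on arrays 1 to 4. Chrna6 gave 0.08, -0.50, 0.24 and -0.13.

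**Figure D3:**
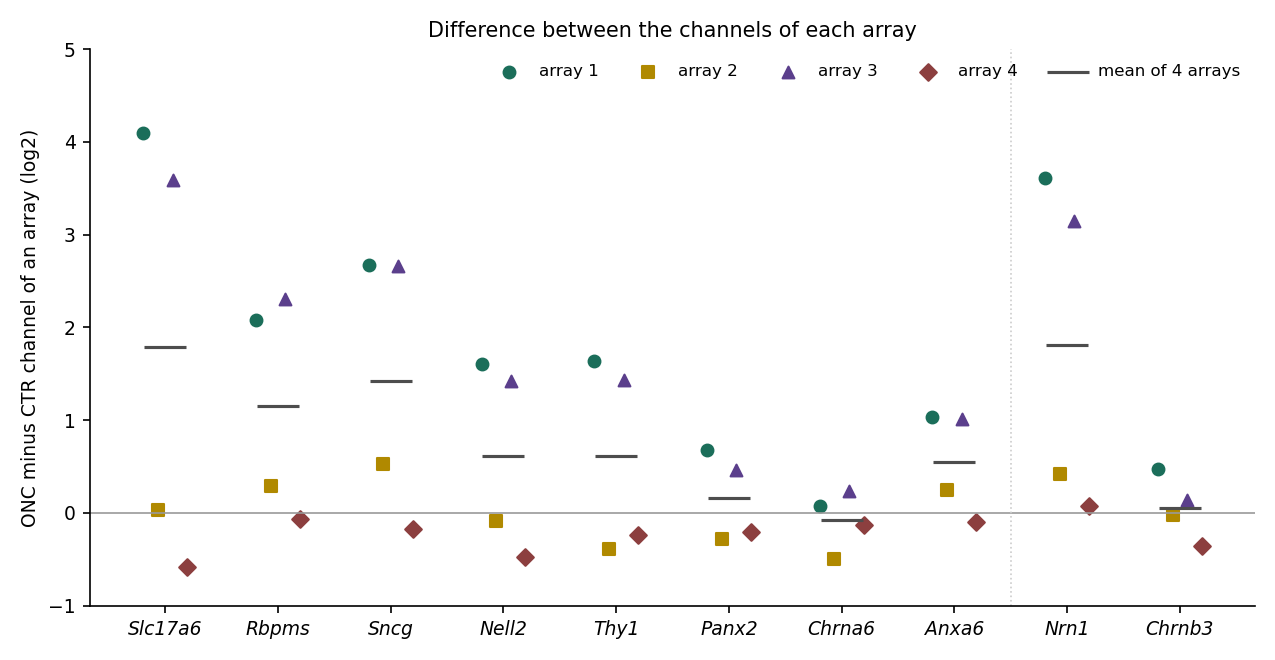
Log2 difference of the ONC over the CTR channel on each of the 4 arrays for the 10 genes, with the mean as a bar. Nrn1 and Chrnb3, right of the dotted line, are shown without the filter on dim spots. Slc17a6 differs by 4.10 on array 1 and by 0.03 on array 2.

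The 8 genes followed each other closely over the 8 channels, which share arrays and so are not independent. Among their 28 pairs, the Pearson r had a median of 0.928 and exceeded 0.9 in 17 pairs. It was highest between Sncg and Anxa6, at 0.996, and lowest between Rbpms and Chrna6, at 0.580. Chrna6 had the lowest r with the mean profile of the 8 genes, 0.787, and Slc17a6 the highest, 0.992, and both are part of that mean. Among the other 16299 genes, those most like the mean profile were Nefm (r = 0.996), the transcript TC589386 (0.995), Fkbp1b (0.995), Cpne4 (0.994), Tmem163 (0.993), Nefl (0.989), Ywhah (0.983), Adra1d (0.983), Nefh (0.983) and Tmod4 (0.981). Nefm, Nefl and Nefh are the neurofilament subunits of axons. Their log2 differences were 1.47, 1.13 and 1.46, with adjusted p of 0.427, 0.416 and 0.398. Least like it were Tmem116 (r = -0.985), Tmprss5 (-0.980), Has1 (-0.978), Mustn1 (-0.977) and Ecel1 (-0.976), and their log2 differences lay between -0.80 for Ecel1 and -0.18 for Has1. That of Tmprss5, -0.21, became positive with median scaling alone. The log2 differences of these 15 genes kept their signs and moved by up to 1.99 times when 1 channel was left out. An r above 0.9 was found for 189 genes (1.16%) and one below -0.9 for 194 (1.19%).

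**Figure D4:**
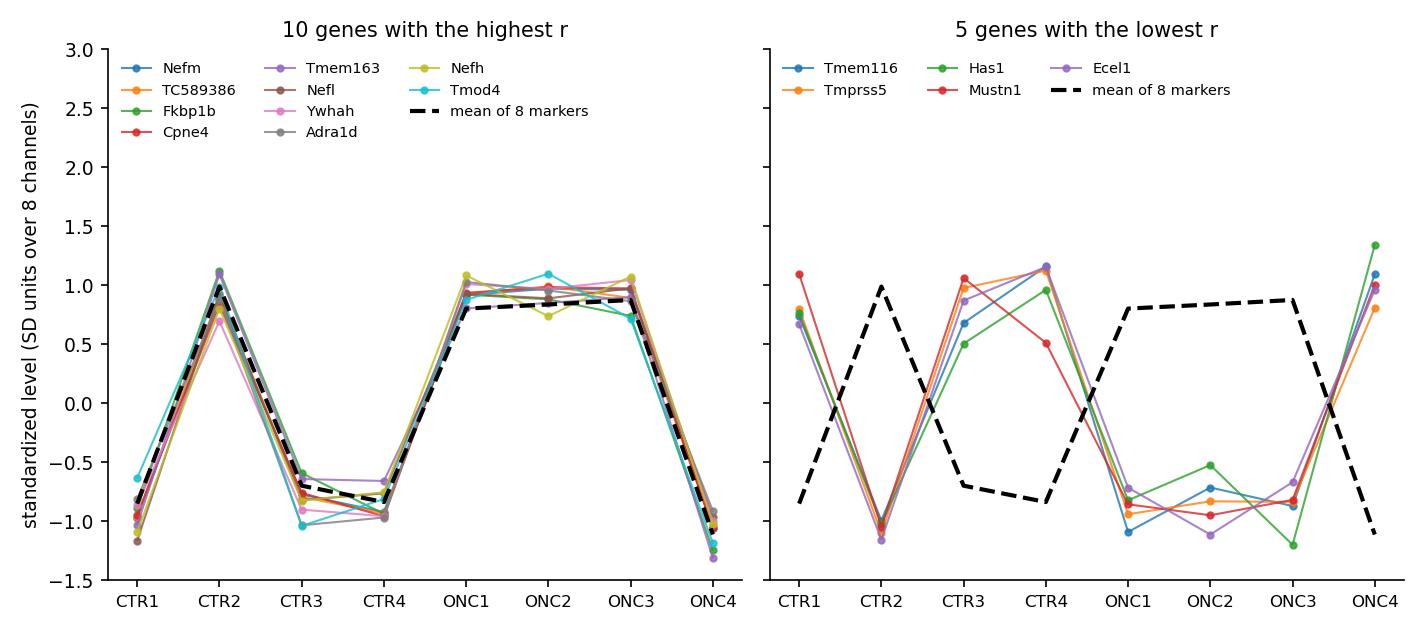
Levels of the 10 genes most like and the 5 genes least like the mean of the 8 markers, each standardized over the 8 channels (SD units). The dashed line is the mean of the 8 markers, high in CTR2, ONC1, ONC2 and ONC3.

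The median of a separate list of 27 other RGC markers showed the same division, but not every gene of the list did. Of these, 25 were found and 21 tested, of which 20 were higher and 1 was lower in ONC, and they had a median log2 difference of 0.61. The median of the list, with each gene set against its mean, placed CTR1 at -0.67, CTR2 at 0.40, CTR3 at -0.65, CTR4 at -0.42, ONC1 at 0.63, ONC2 at 0.57, ONC3 at 0.66 and ONC4 at -0.57. Pou4f2, a transcription factor of RGCs, had the largest log2 difference, 2.07 (SE 0.92, adjusted p = 0.274). Gap43, a growth cone protein, had the only negative one, -0.07 (SE 0.15, adjusted p = 0.857), and its sign changed in 2 of 18 alternatives. Its 8 channels stayed between 1.75 and 2.41. Tubb3, a tubulin of neurons, had the smallest adjusted p of the list, with a log2 difference of 1.16 (SE 0.22, adjusted p = 0.0575), groups that did not overlap, CTR from 1.02 to 1.80 and ONC from 2.24 to 2.93, and the ONC channel higher on 4 of 4 arrays. In Ebf1, a transcription factor, ONC1 lay low at -3.52, and the log2 difference was 0.27 (SE 0.23, adjusted p = 0.576). Over all 24 lists used here, limma called 0 of 150 genes outside the 10 markers, 27 (18%) had an unadjusted p under 0.05, against 18.6% of all genes, and 7 (4.67%) were called with the array as a block, against 7.69% of all.

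Markers of the other cell types of the retina were summarised in the same way. Of the 11 microglial genes, all of which passed the filter, 10 were lower and 1 higher in ONC, with a median log2 difference of -0.35. Their summed log2 level placed CTR1 at 3.81, CTR2 at 3.64, CTR3 at 4.65, CTR4 at 4.64, ONC1 at 3.43, ONC2 at 3.98, ONC3 at 3.65 and ONC4 at 3.93. It was thus highest in CTR3 and CTR4, where the RGC markers were low, but CTR1 and ONC4 were not as high. C1qb, the brightest gene of that list, had a log2 difference of -0.69 (SE 0.48, adjusted p = 0.486). The part of these cells in the marker differences was not tested. Of 3 astrocyte genes all were lower, with a median of -0.34, and Gfap was at -1.15 (SE 0.54, adjusted p = 0.296). Of 6 Müller glia genes 2 were higher and 4 lower, with a median of -0.21, and Glul was at 0.58 (SE 0.26, adjusted p = 0.271). Over 18 alternatives the astrocyte median ran from -0.75 to -0.18 and that of Müller glia from -0.33 to -0.12. C1qb ran from -1.11 to -0.39, Gfap from -1.47 to -0.75 and Glul from 0.29 to 0.72 when 1 channel was left out.

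Among the photoreceptors, 8 rod genes gave 4 higher and 4 lower, with a median log2 difference of -0.11, which was -0.05 without CTR1, -0.05 without ONC2, -0.17 without ONC4 and -0.45 with median scaling in place of loess. Of 6 cone genes 1 was higher and 5 lower, with a median of -0.32, and Pde6h was at -0.39 (SE 0.14, adjusted p = 0.184). Of 8 bipolar genes 7 were higher and 1 lower, with a median of 0.20, and Prkca was at 0.36 (SE 0.11, adjusted p = 0.146). The 9 amacrine genes had a median of -0.01 (4 higher and 5 lower), whose sign changed in 5 of 18 alternatives, and Tfap2a was at 0.58 (SE 0.27, adjusted p = 0.304), or 0.28 to 0.73 with 1 channel left out. The 5 horizontal cell genes had a median of -0.01 (2 higher and 3 lower), whose sign also changed in 5 of 18 alternatives, and Onecut2 was at 0.17 (SE 0.10, adjusted p = 0.388). The 5 oligodendrocyte genes had a median of 0.04 (4 higher and 1 lower), whose sign changed in 2 of 18 alternatives and which was 0.58 with median scaling, and Cnp was at -0.75 (SE 0.18, adjusted p = 0.0807).

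Tissues that can be carried over in a dissection were looked at last. Of 9 lens genes 1 was higher and 8 lower, with a median log2 difference of -0.41, and Cryaa was at -0.95 (SE 0.29, adjusted p = 0.134). The lens median rested largely on CTR2: it was -0.08 without CTR2, -0.61 without CTR4 and -0.975 with CTR2, CTR4, ONC1 and ONC3 only. With each gene set against its mean, the lens list had a median of 1.20 for CTR2, while the other channels ran from -0.64 to 0.33. All 9 lens genes passed the filter, Crygs was the brightest, and their summed log2 level was 7.48 for CTR2, against 5.58 for ONC3 at the lowest and 6.57 for ONC4 as the next highest. The 4 pigment epithelium genes were all higher, with a median of 0.19 (0.12 without CTR2, 0.06 without CTR3, 0.45 without CTR4, 0.06 without ONC1, 0.53 without ONC2, 0.06 without ONC4 and 0.12 without the filter on dim spots), and Rpe65 was at 0.79 (SE 0.34, adjusted p = 0.256). The 3 blood genes were all higher, with a median of 0.22 (0.05 without CTR2, 0.37 without CTR4, 0.11 without ONC1, 0.35 without ONC2, 0.12 without ONC3, 0.11 with the brightest probe and 0.63 with CTR2, CTR4, ONC1 and ONC3 only), and Hba1 was at 0.38 (SE 0.20, adjusted p = 0.349). Of 7 genes of endothelium and pericytes 4 were higher and 3 lower, with a median of 0.11 (0.02 without CTR2, 0.06 without ONC1, 0.03 without ONC4 and 0.02 with median scaling), and Rgs5 was at -0.19 (SE 0.15, adjusted p = 0.556). With 1 channel left out, Rpe65 ran from 0.51 to 1.04 and Rgs5 from -0.31 to -0.08. Lens transcripts were thus high in CTR2, the CTR channel with high RGC markers, but not in the ONC channels with high RGC markers, and their part was not tested. With the array as a block, the genes limma called included Slc1a3 at -0.56 and Vim at -0.41 (Müller glia), Opn1mw at -0.37, Pde6h at -0.39, Slc6a9 at -0.41 (amacrine cells) and Cnp at -0.75.

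**Figure D5:**
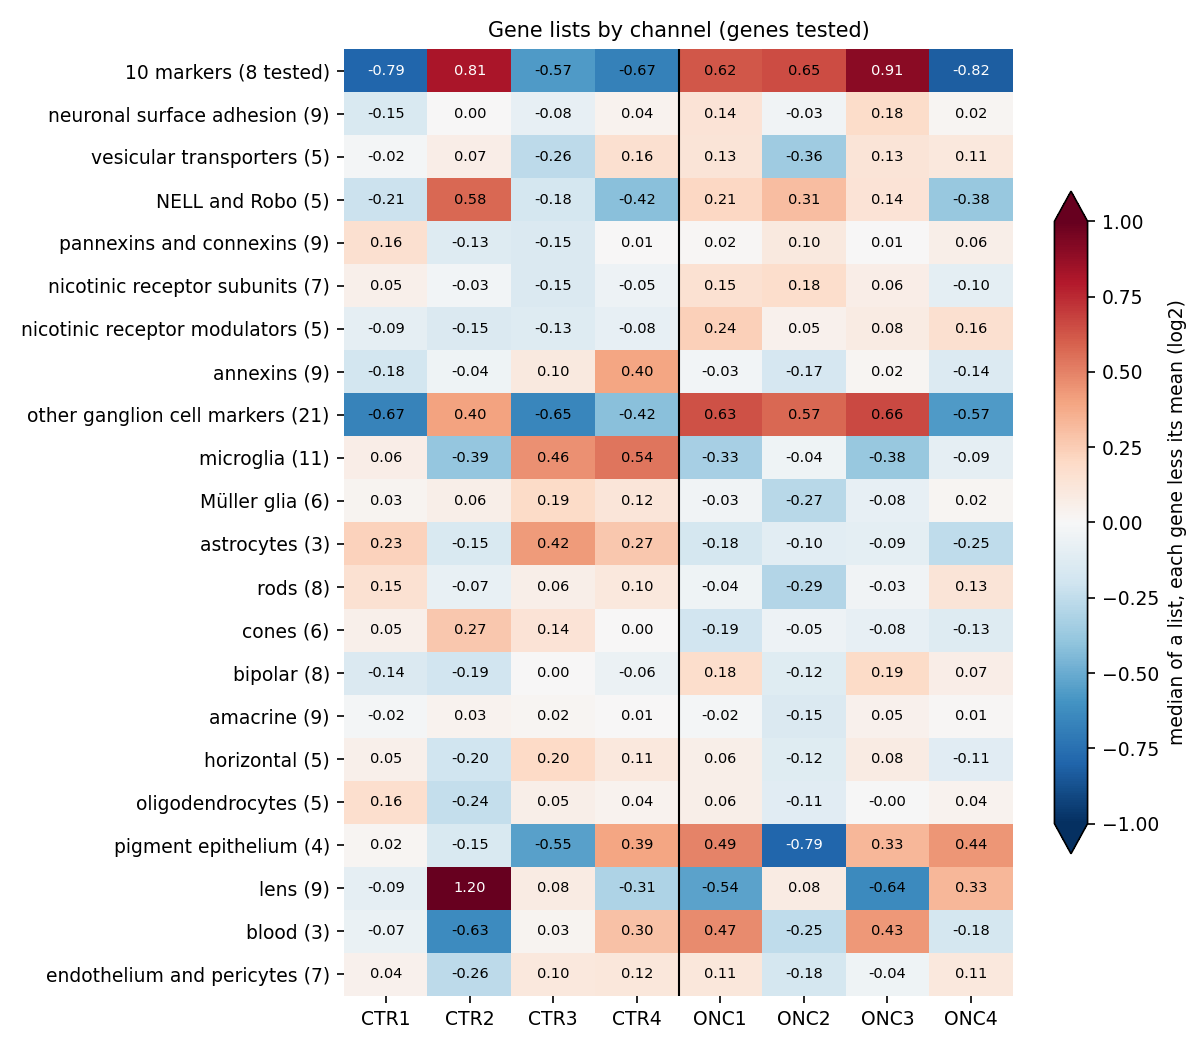
Median of each gene list in the 8 channels (log2, relative to the gene's own mean), with the number of genes tested. The 10 markers and the other ganglion cell markers are positive in CTR2, ONC1, ONC2 and ONC3 and negative in the other channels. Lists of fewer than 5 genes are shown for cell types only. The signs of the medians between labels change with the processing for vesicular transporters, pannexins and connexins, nicotinic receptor subunits, amacrine, horizontal and oligodendrocyte genes.

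Since most of these genes followed each other over the channels, their promoters were read from RefSeq (GRCr8), as 250 bases before to 50 bases after the start of the gene. The table held 3 of the 10, those of Sncg, Slc17a6 and Panx2. Both strands were searched for 6 motifs, and no match overlapped another. The TATA box, known from promoters with a fixed start, was written as TATAAA, while the GC box bound by Sp1 was written as GGGCGG. The CCAAT box was searched by the letters of its name, and the E-box of helix-loop-helix factors was taken as CAGCTG. The core bound by many homeodomain proteins was written as TAATTA, and the core for the POU4F factors of RGCs as ATTAAT. Slc17a6 held 1 E-box, a motif found in 15.1% of 33469 promoters, and none of the others. Sncg and Panx2 each held 1 GC box, found in 33.1% of promoters, and none of the others, of which the TATA box is in 14.2%, the CCAAT box in 37.5%, the homeobox core in 5.4% and the POU4F core in 5.2%. These promoters therefore had no motif of the list in common, apart from the GC box of Sncg and Panx2. The promoters of Sncg (chr16:9711287-9711586, minus strand) and Slc17a6 (chr1:110348197-110348496, plus strand) are given because the levels of these genes had an r of 0.988, with the motif found in capitals, which for Sncg reads as its reverse complement.
Sncg promoter: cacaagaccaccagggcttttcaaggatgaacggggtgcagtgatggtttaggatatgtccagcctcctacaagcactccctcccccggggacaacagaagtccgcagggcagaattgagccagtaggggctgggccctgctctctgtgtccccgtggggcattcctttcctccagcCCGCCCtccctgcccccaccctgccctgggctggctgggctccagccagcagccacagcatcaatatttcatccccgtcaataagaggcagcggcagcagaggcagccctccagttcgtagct
Slc17a6 promoter: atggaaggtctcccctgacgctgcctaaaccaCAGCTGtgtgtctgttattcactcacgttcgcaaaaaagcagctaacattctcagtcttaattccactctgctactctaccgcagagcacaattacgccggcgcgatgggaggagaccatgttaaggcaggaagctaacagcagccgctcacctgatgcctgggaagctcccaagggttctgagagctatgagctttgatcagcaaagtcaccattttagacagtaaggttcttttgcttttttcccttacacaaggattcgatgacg
A match is a description of letters and was not tested for binding.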

How the data were processed

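RNA of 4 CTR and 4 ONC retinas was hybridized onto 4 arrays of 2 channels each. The authors deposited spot intensity from the scanner software (Feature Extraction 12.0.3.1 per the file headers, 11.1.19.1 per the labels): mean foreground, median local background, a processed signal and quality marks. Spots were kept when the foreground was at least 2 times the background in all 8 channels and they carried none of the outlier marks used. Those were the marks for a non-uniform spot, a non-uniform background and a spot that is a population outlier. The mark for a background population outlier was not used. This left 16307 genes (27371 spots, 18599 probes). After subtraction of the background, loess was applied within arrays, channels were centred on their medians, and log2 values were averaged over spots, then over probes. Levels are on this scale and are relative to the channel median. ONC and CTR were compared by a two-sided test in limma 3.58.1 (R 4.3.3, functions lmFit and eBayes), with Benjamini-Hochberg adjustment over all genes and calls at an adjusted p under 0.05. All adjusted p are from limma. For dim spots the fit was repeated on 25942 genes without the filter on brightness, after normexp correction with an offset of 50. Spots with the outlier marks used above were still left out of it. The 4 retinas of a group and the array number limit the precision. The fit was tested on simulated data. Figures were drawn with matplotlib 3.10.9 in Python 3.11.15.

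The members and the lists were chosen with earlier results of these data known. The lists are the families of the markers (synucleins, neuritins, neuronal surface adhesion, vesicular transmitter transporters, NELL and Robo, RBPMS, pannexins and connexins, nicotinic receptor subunits and their modulators, annexins), other RGC markers and markers of microglia, Müller glia, astrocytes, rods, cones, bipolar, amacrine and horizontal cells, oligodendrocytes, pigment epithelium, lens, blood, and endothelium and pericytes. Named are the 10 genes, in each family and in the other RGC markers the genes with the largest and smallest log2 difference, the gene with the largest absolute one in each cell type list, every gene called, and the 10 genes most and the 5 least like the mean profile of the 8 genes by Pearson r. Some genes that these rules pick are not reported. Genes called with the array as a block, Tubb3, Ebf1, Chrna3, Csf1r and Cx3cr1 were named after their values were seen. Replicate numbers were taken as pairs of channels on the same array: over 16307 genes, the deviations from the group means of channels with the same number correlated at 0.15, 0.55, 0.40 and 0.49 on arrays 1 to 4. The alternatives were normexp with an offset of 50, median scaling without loess, Aquantile, the processed signal, no filter on dim spots, spots well above background, the brightest probe, the array as a block, each channel left out, the 4 channels whose dye both sources give alike, and the methods' t-test with Benjamini-Hochberg adjustment. Channels labelled ONC1 and ONC3 were the closest pair (scaled median absolute difference 0.112 over genes). The next closest were ONC2 with ONC3 (0.228) and CTR3 with CTR4 (0.229). ONC1 and ONC3 were counted as separate retinas because the labels name them so, and this was not tested. Every SE and p given here rests on that count.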

Additional observations from a re-analysis of the deposited data

Results flagged for a closer look

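A channel is listed here when its gap to the nearest of the other 3 channels of its group makes up a larger share of the group's range than the 95% limit of Dixon's test allows, which chance gives in about 1 in 20 groups. Of 162 groups of 4 channels looked at here, 42 passed the limit. Many of these groups belong to genes picked because they follow the mean profile of the markers, so that count was expected to be high. Of the 20 groups of the 10 markers, 10 passed. Of the 16 groups of the 8 markers that passed the filter, 8 did (50%), against 2579 of 32614 groups over all genes (7.91%). The groups of the markers are not separate looks, since most of these genes follow each other over the channels. Each marker group past the limit is set apart by CTR2 or ONC4. The markers were also chosen with earlier results known, so the shares are no test. Values are log2 levels, and those of lists are medians with each gene set against its mean. Among the markers, CTR2 stood above the other CTR channels in Sncg (2.56, the others from 0.43 to 0.76), Slc17a6 (2.55, the others from -1.49 to -0.81) and Nrn1 with dim spots kept (1.52, the others from -1.9 to -1.59). ONC4 stood below the other ONC channels in Sncg (0.59, the others from 3.09 to 3.12), Slc17a6 (-1.4, the others from 2.58 to 2.66), Nell2 (-1.16, the others from 1.1 to 1.29), Panx2 (-0.84, the others from 0.15 to 0.2), Chrna6 (-1.08, the others from -0.35 to -0.23), Anxa6 (-0.43, the others from 0.44 to 0.5) and Nrn1 with dim spots kept (-1.52, the others from 1.55 to 1.94).

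Among the other genes and lists, CTR2 was high in Nefm (2.84, the others from -0.21 to 0.12), TC589386 (3.69, the others from 3.14 to 3.19), Fkbp1b (-0.21, the others from -1.03 to -0.9), Cpne4 (-0.32, the others from -1.51 to -1.38), Ywhah (2.81, the others from 1.87 to 1.92), Adra1d (-2.57, the others from -3.5 to -3.39), Cntn2 (-1.88, the others from -2.82 to -2.7) and Nell1 (-0.63, the others from -2.33 to -2.25), and low in Tmprss5 (-3.57, the others from -3.12 to -3.05) and Hba1 (2.09, the others from 2.53 to 2.61). ONC4 was low in Nefm (-0.35, the others from 2.9 to 2.99), TC589386 (3.13, the others from 3.68 to 3.71), Fkbp1b (-1.16, the others from -0.36 to -0.29), Cpne4 (-1.58, the others from -0.25 to -0.22), Tmem163 (-2.74, the others from -0.67 to -0.58), Nefl (-1.5, the others from 0.79 to 0.9), Ywhah (1.85, the others from 2.97 to 3.01), Adra1d (-3.44, the others from -2.58 to -2.5), Nefh (-2.54, the others from 0.21 to 0.75), Tmod4 (-2.44, the others from -1.57 to -1.39), Cntn2 (-2.47, the others from -1.69 to -1.65), Chrna5 (-3.89, the others from -3.35 to -3.3), Pou4f2 (-3.14, the others from -0.05 to -0.03) and the median of other ganglion cell markers (-0.57, the others from 0.57 to 0.66), and high in Tmprss5 (-3.12, the others from -3.54 to -3.51) and Mustn1 (-1, the others from -2.31 to -2.22). ONC2 was low in Gfap (-3.26, the others from -1.69 to -1.57), Prkca (-1.08, the others from -0.68 to -0.66), the median of vesicular transmitter transporters (-0.36, the others from 0.11 to 0.13) and the median of pigment epithelium (-0.79, the others from 0.33 to 0.49). CTR4 was low in Nrn1l (2.46, the others from 2.67 to 2.71) and the median of neuritins (-0.21, the others from 0 to 0.04). What sets these channels apart was not tested.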

How the results depend on the processing

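Over 18 alternatives, limma or the methods' t-test called 0 of the 8 genes in each, and the median log2 difference of the 8 genes stayed positive, between 0.46 and 1.09. Of 144 gene and alternative pairs, 4 changed sign, all for Chrna6: 0.14 with the processed signal, 0.14 without CTR2, 0.12 without ONC4 and 0.068 with CTR2, CTR4, ONC1 and ONC3 only (-0.26 to 0.14 with 1 channel left out). The number of genes called over the whole array, 81, depended on the processing: it was 14 with normexp, 3194 with median scaling without loess, 412 with Aquantile, 21 with the processed signal, 0 without the filter on dim spots (1957 at an unadjusted p under 0.05), 123 for spots well above background, 124 with the brightest probe, 1254 with the array as a block, 0 for the 4 channels (1961 unadjusted) and 0 by the methods' t-test (2682 unadjusted). With 1 channel left out it ran from 0 to 38: 38 without ONC2, and by limma 0 without ONC1, without ONC3, without ONC4 and without CTR1, without CTR2, without CTR3 or without CTR4 (unadjusted p under 0.05 in 2085 to 3252). Other signs that changed include those of Chrna1 (0.040 with median scaling, -0.12 to 0.052 with 1 channel left out), Tmprss5 (0.33 with median scaling), Ebf1 (-0.060 with the 4 channels, 0.15 to 0.45 with 1 channel left out), Gap43 (0.023 with the 4 channels, -0.17 to 0.051 with 1 channel left out) and the dim Chrnb3 (-0.043 to 0.13 with 1 channel left out). With 1 channel left out, the log2 difference ran from 1.21 to 2.05 for Sncg, 0.40 to 0.99 for Thy1, 1.35 to 2.79 for Slc17a6, 0.39 to 1.21 for Nell2, 0.77 to 1.74 for Rbpms, 0.03 to 0.42 for Panx2, 0.46 to 0.78 for Anxa6 and 1.47 to 2.62 for Nrn1. Calls that appeared include, with median scaling, Adra1d, Cntn2, Slc32a1, Gjb6, Chrna5, Pde6h, Prkca, Onecut2, Cryaa, Tubb3 and Ebf1, and with Aquantile, Cnp and Tubb3. The block changed no call other than those given with it. The cause was not tested. Signal over background limits Nrn1, Chrnb3 and the low channels of Rbpms most.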
